A study of Arabidopsis thaliana with 12 samples.

Results

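The interaction of genotype and light regime asks, for each gene, how far the difference between rtnlb16-1 and Col-0 leaves differed between 2 light regimes. It is a difference of differences on the log2(normalized count + 1) scale: rtnlb16-1 LD minus Col-0 LD, less rtnlb16-1 CLL minus Col-0 CLL. A positive value means that rtnlb16-1 stood higher against Col-0 in LD than in CLL, and a negative value that it stood lower. All 12 of the 12 RNA-seq libraries entered it, and 30388 of the 37336 genes in the table were above 0 in at least 1 library and were tested. The 4 groups of 3 libraries were rtnlb16-1 LD (libraries 50, 51 and 52), Col-0 LD (47, 48 and 49), rtnlb16-1 CLL (68, 69 and 70) and Col-0 CLL (65, 66 and 67). LD was a cycle of 16 h light and 8 h dark at about 80 µmol per s and m2, and CLL was continuous low light at about 50 µmol per s and m2, so photoperiod and light intensity changed together and cannot be told apart. Plants were 4 weeks old, and each library came from mature leaves pooled over at least 3 plants. Col-0 is the wild-type accession, and rtnlb16-1 is 1 T-DNA insertion line (Salk_122275) in the same background, grown in both regimes. Its T-DNA removes the start of a splice variant of RTNLB16, next to the neighbouring gene MSD1, and carries CaMV35S promoter sequence. Values are per gene, so splice variants were not told apart.

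RTNLB16 belongs to the reticulon-like proteins, membrane proteins that shape the tubules of the endoplasmic reticulum (ER). Leaves read a day-night cycle through the circadian clock and through photoreceptors, and both set when growth genes of the auxin pathway and the PIF transcription factors are on. Continuous light has no daily dark phase to set that timing.

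Libraries held 25954730 to 44747661 assigned reads. Libraries 68 and 69 of rtnlb16-1 CLL were closer to each other than any other pair: the chi-square of their reads per degree of freedom was 1.81, against 25.4 to 176 in the other 11 pairs of a group. They differed by more than sampling noise, so each counted as 1 sample. That excess does not show that they came from separate plant pools, and whether they came from 1 pool was not tested. The calls depend on this choice: 282 genes were called with each as 1 sample, and 66 with their mean as 1 sample. Beside called genes, the adjusted p with the mean of libraries 68 and 69 as 1 sample is given as the merged adjusted p wherever it is 0.01 or more. The highest adjusted p on leaving out 1 library is given as the leave-out adjusted p wherever it is 0.01 or more, with that library's number and in how many of the 12 such fits the call was lost. Beside genes without a call neither is given, except the merged adjusted p of FER4 and NEET. Neither is given for the called genes IAA3, IAA14, IAA19, AT3G16530, AT5G52390, AT1G04645 and AT1G56470, and for these its absence does not mean that the call held. Every LD library has a lower number (47 to 52) than every CLL library (65 to 70), so the order of the libraries and the light regime cannot be told apart. The labelled tissue held high levels of leaf mesophyll markers in all groups (8 of 8 detected, summed level 1378524 to 2373285 in rtnlb16-1 LD, 3041674 to 5559616 in Col-0 LD, 917907 to 1163269 in rtnlb16-1 CLL and 1537672 to 1879732 in Col-0 CLL). Shoot meristem markers, which mature leaves are not known for, had 0 of 10 called by limma, and their levels are given beside the positive interactions. In bulk leaves, fewer cells of a type and less RNA per cell cannot be told apart.

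A gene was called at an adjusted p under 0.01 (Benjamini-Hochberg over the 30388 genes, limma) and an interaction above 1 in size. In all, 282 genes were called, 0.928% of those tested: 120 positive (0.395%) and 162 negative (0.533%). The median interaction over all genes tested was 0.0047, and each ± beside an interaction is its standard error (SE). With libraries 68 and 69 as 1 sample, 66 were called (0.217%), 21 positive (0.0691%) and 45 negative (0.148%), and all 66 were among the 282. Count tests on the recovered reads called more: edgeR called 1207 (3.97%: 601 positive, 1.98%, and 606 negative, 1.99%) and DESeq2 1070 (3.52%: 525 positive, 1.73%, and 545 negative, 1.79%), and each of them called 261 of the 282. Leaving out 1 library left 38 (without Col-0 CLL library 65) to 227 calls (without Col-0 CLL library 66), and 27 of the 282 genes were called whichever of the 12 libraries was left out.

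The targeted locus itself had an interaction. RTNLB16 (AT3G10915, chromosome 3, 3415933 to 3417809 in TAIR10.1) had 12665, 7577 and 8231 in rtnlb16-1 LD, against 769, 876 and 1016 in Col-0 LD. CLL levels of RTNLB16 were 2207, 2252 and 1543 in rtnlb16-1 CLL, against 954, 709 and 640.3 in Col-0 CLL (normalized counts throughout). The 3 rtnlb16-1 libraries were above the 3 Col-0 libraries in both regimes, and further above them in LD. The RTNLB16 interaction was 2.01 ± 0.33 (adjusted p = 0.00491, merged adjusted p = 0.0234, leave-out adjusted p = 0.0384 without 65, lost in 12 of 12). The RTNLB16 call was lost whichever library was left out. MSD1, which encodes the mitochondrial manganese superoxide dismutase, had 9423, 6609 and 7463 in rtnlb16-1 LD, against 5726, 4885 and 7776 in Col-0 LD. CLL levels of MSD1 were 5491, 5664 and 5157 in rtnlb16-1 CLL, against 5083, 6258 and 5811 in Col-0 CLL, so that the genotypes overlapped in both regimes (interaction 0.43 ± 0.29, adjusted p = 0.518). RTNLB16 was the 1 called gene among 19 reticulon-like genes tested (5.26%, beside 0.395% of all genes called positive), whose median interaction was 0.17. Its interaction was not the largest of them, since AT4G28430, without a call, also had 2.01.

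In most called genes the LD groups were further apart than the CLL groups. Differences were also larger in LD over all genes tested, where 22.0% were over 1 in size in LD and 10.5% in CLL. The LD difference between the genotypes was the larger one in size in 266 of the 282 called genes (113 of 120 positive and 153 of 162 negative). In 84 positive and 127 negative genes the genotypes differed by more than 1 on the log2 scale in LD and by no more than 1 in CLL, and in 6 positive and 6 negative genes the reverse held. The 2 differences had the same sign and both passed 1 in 25 positive and 21 negative genes, and opposite signs with both past 1 in 4 positive and 6 negative genes. Neither passed 1 in 1 positive and 2 negative genes. The group at one extreme was mostly an LD group: 107 of the 120 positive genes had their lowest group mean in Col-0 LD and 91 had their highest in rtnlb16-1 LD, whereas 139 of the 162 negative genes had their lowest in rtnlb16-1 LD and 127 their highest in Col-0 LD.

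**Figure D1:**
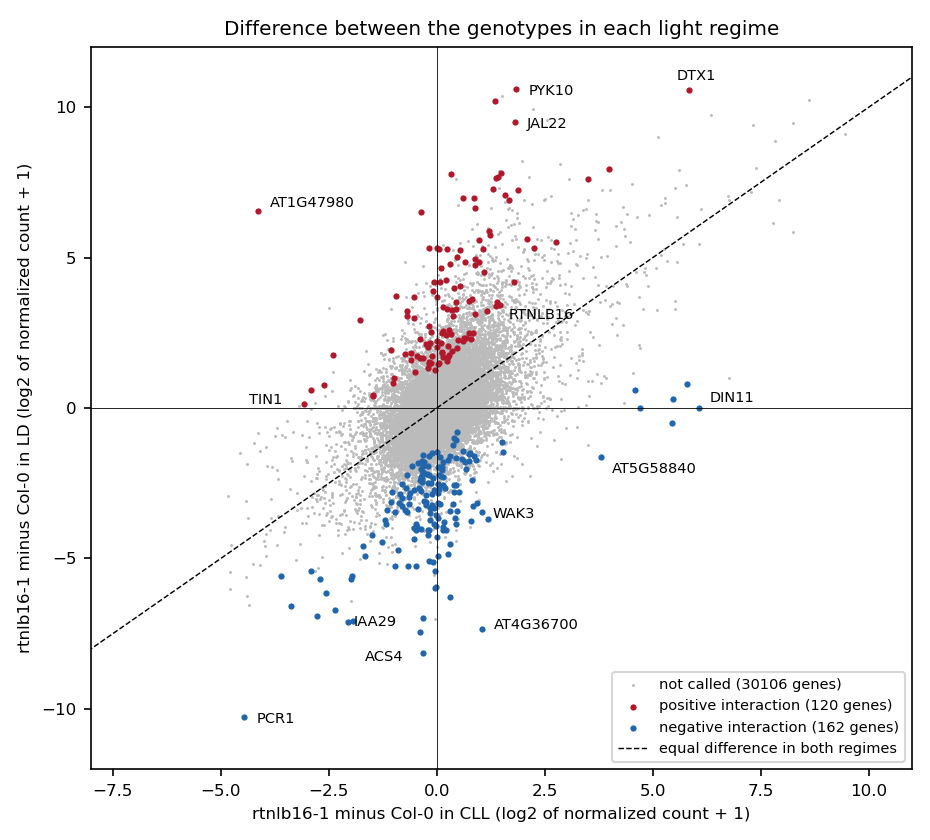
Difference between rtnlb16-1 and Col-0 in LD (vertical axis) against the same difference in CLL (horizontal axis), both in log2 of the normalized count + 1, for the 30388 genes tested. Each point is a gene, red for the 120 with a positive and blue for the 162 with a negative interaction call, and the dashed line marks equal differences in both regimes; most called genes lie near a CLL difference of 0 and far from an LD difference of 0.

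Genes of the ER body and its lectins had the most positive calls of the 47 lists. The lists were chosen with earlier results of these data known, so their called shares are a description and not a test. ER bodies are ER-derived compartments of the Brassicales that store beta-glucosidases, chiefly PYK10, and jacalin-related lectins gather around PYK10 when tissue is broken. Of 19 genes tested, 6 were called positive (31.6%, beside 0.395% of all genes) and 0 negative (8 and 0 by edgeR, 2 and 0 with libraries 68 and 69 as 1 sample), with a median interaction of 1.51. PYK10 (AT3G09260, chromosome 3, 2840477 to 2843781), the main ER body beta-glucosidase, had 2827, 3692 and 3441 in rtnlb16-1 LD, against 2.86, 0 and 1.37 in Col-0 LD. CLL levels of PYK10 were 1298, 1224 and 2229 in rtnlb16-1 CLL, against 947, 106 and 759 in Col-0 CLL. It was near 0 in Col-0 LD and above 100 in every other library, and Col-0 CLL library 66 stood well below the other 2 of its group. The PYK10 interaction was 8.78 ± 0.93 (adjusted p = 0.000209, leave-out adjusted p = 0.0181 without 68, lost in 4 of 12). PYK10 overlaps AT3G09250 on the other strand at its end.

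The lectin gene JAL22 had 578, 776 and 857 in rtnlb16-1 LD, against 0 in each Col-0 LD library. CLL levels of JAL22 were 274, 295 and 351 in rtnlb16-1 CLL, against 135, 34.7 and 139 in Col-0 CLL. It was at 0 in all 3 Col-0 LD libraries and the genotypes did not overlap in either regime. The JAL22 interaction was 7.71 ± 0.63 (adjusted p = 4.13e-05), and it was called whichever library was left out. JAL33 had 365, 379 and 526 in rtnlb16-1 LD, against 0, 1.76 and 1.37 in Col-0 LD. CLL levels of JAL33 were 81.7, 90.9 and 189 in rtnlb16-1 CLL, against 72.7, 10.04 and 77.6 in Col-0 CLL. JAL33 followed the same order of groups as JAL22, at lower levels, with an interaction of 6.31 ± 0.94 (adjusted p = 0.00276, merged adjusted p = 0.0246, leave-out adjusted p = 0.0405 without 68, lost in 11 of 12). JAL31 (5.07 ± 0.88, adjusted p = 0.00672, merged adjusted p = 0.0374, leave-out adjusted p = 0.0464 without 68, lost in 11 of 12) and JAL34 (2.33 ± 0.36, adjusted p = 0.00346, merged adjusted p = 0.0242, leave-out adjusted p = 0.0295 without 69, lost in 10 of 12) encode further jacalin-related lectins, and GLL23 (4.49 ± 0.81, adjusted p = 0.00808, merged adjusted p = 0.0453, leave-out adjusted p = 0.0852 without 68, lost in 11 of 12) a GDSL lipase-like protein of the same complexes. JAL34 overlaps its neighbour JAL35 on the other strand, and no strand setting of the counting is given in the sources used here. Members without a call included NAI1, the transcription factor of ER body formation, with 38.7, 28.1 and 25.00 in rtnlb16-1 LD, against 18.6, 33.4 and 28.8 in Col-0 LD, and an interaction of 0.34 ± 0.55. The ER body membrane proteins MEB1 (interaction 0.59) and MEB2 (0.86) had no call either.

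Several genes with positive interactions, some of them among the largest, were lowest in Col-0 LD, where some were at or near 0. AT4G29030 had 5599, 2406 and 5242 in rtnlb16-1 LD, against 0, 10.6 and 2.74 in Col-0 LD. CLL levels of AT4G29030 were 1638, 1700.2 and 2208 in rtnlb16-1 CLL, against 3232, 83.1 and 1404 in Col-0 CLL. This gene, annotated as a putative membrane lipoprotein, was lowest in library 66 within Col-0 CLL, and its interaction was 8.86 ± 1.47 (adjusted p = 0.00527, merged adjusted p = 0.0365, leave-out adjusted p = 0.0745 without 68, lost in 11 of 12). PDF1 had 14038, 5859 and 13685 in rtnlb16-1 LD, against 60.1, 127 and 38.4 in Col-0 LD. CLL levels of PDF1 were 4025, 3908 and 6396 in rtnlb16-1 CLL, against 6067, 399.9 and 2754 in Col-0 CLL. PDF1 is a protein of the outermost cell layer of shoots, and its lowest CLL value was again that of library 66 (interaction 5.97 ± 1.03, adjusted p = 0.00675, merged adjusted p = 0.0436, leave-out adjusted p = 0.0865 without 68, lost in 11 of 12). SPCH, the transcription factor that starts the stomatal lineage, had 188, 222 and 254 in rtnlb16-1 LD, against 7.15, 10.6 and 8.23 in Col-0 LD. CLL levels of SPCH were 151, 159.8 and 187 in rtnlb16-1 CLL, against 125, 30.1 and 121 in Col-0 CLL, with an interaction of 3.44 ± 0.64 (adjusted p = 0.00984, merged adjusted p = 0.0509, leave-out adjusted p = 0.0721 without 68, lost in 11 of 12). The genotypes did not overlap in LD for any of the 3 genes. GASA5, a small gibberellin-regulated protein (6.36 ± 0.95, adjusted p = 0.00276, merged adjusted p = 0.0234, leave-out adjusted p = 0.0367 without 68, lost in 10 of 12), ADS4, a fatty acid desaturase (6.12 ± 0.86, adjusted p = 0.00183, merged adjusted p = 0.0152, leave-out adjusted p = 0.0286 without 69, lost in 10 of 12), the peroxidase AT2G38380 (6.24 ± 1.02, adjusted p = 0.00499, merged adjusted p = 0.0328, leave-out adjusted p = 0.0522 without 68, lost in 11 of 12) and the E6-like protein AT2G33850 (6.30 ± 1.03, adjusted p = 0.00499, merged adjusted p = 0.0334, leave-out adjusted p = 0.0682 without 68, lost in 11 of 12) had the same form, with 0 to 7.04 in Col-0 LD and at least 63.3 in rtnlb16-1 LD.

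The meristem genes STM and KNAT1 had that form too. STM, the homeobox gene that keeps shoot meristems undifferentiated, had 351, 169.7 and 426 in rtnlb16-1 LD, against 0 in each Col-0 LD library. CLL levels of STM were 183, 184 and 205 in rtnlb16-1 CLL, against 266, 2.74 and 113 in Col-0 CLL. KNAT1, a related homeobox gene, had 77.4, 159 and 286 in rtnlb16-1 LD, against 0, 1.76 and 0 in Col-0 LD. CLL levels of KNAT1 were 139, 120.3 and 108 in rtnlb16-1 CLL, against 60.6, 5.48 and 46.2 in Col-0 CLL. Both were at or near 0 in all Col-0 LD libraries and low in Col-0 CLL library 66, and present in the other 8 libraries. None of the 10 meristem markers was called by limma, the STM interaction being 6.22 ± 1.51 (adjusted p = 0.04), while edgeR and DESeq2 each called 4, all positive. The median interaction of the 10 was 2.02. Their summed level, of which CLV1 was the main part, was 1986 to 2298 in rtnlb16-1 LD, 1360.5 to 2071 in Col-0 LD, 2039 to 2102 in rtnlb16-1 CLL and 1543 to 2275 in Col-0 CLL, and the median library detected 10, 4, 10 and 10 of them. Flower markers summed to 387 to 895 in rtnlb16-1 LD, 111 to 129 in Col-0 LD, 331 to 584 in rtnlb16-1 CLL and 65.7 to 113 in Col-0 CLL, with LFY, AP1, CAL, SHP2 and STK at 0 in all Col-0 LD libraries and 0 of 13 called. Stomatal lineage markers summed to 1996 to 2543 in rtnlb16-1 LD, 1419 to 2201 in Col-0 LD, 2319.9 to 2639 in rtnlb16-1 CLL and 1516 to 2142 in Col-0 CLL, with SPCH the 1 call of 13 (7.69%, beside 0.395% of all genes called positive). Xylem and root hair markers had 0 calls. The part of these cell types in the positive interactions was not tested. Library 66 was alone the lowest of the 6 CLL libraries in 36 of the 120 positive genes, and Col-0 CLL library 67 in 30. How often each library was the lowest over all genes was not counted. Without library 66, 148 genes were called positive and 79 negative.

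**Figure D2:**
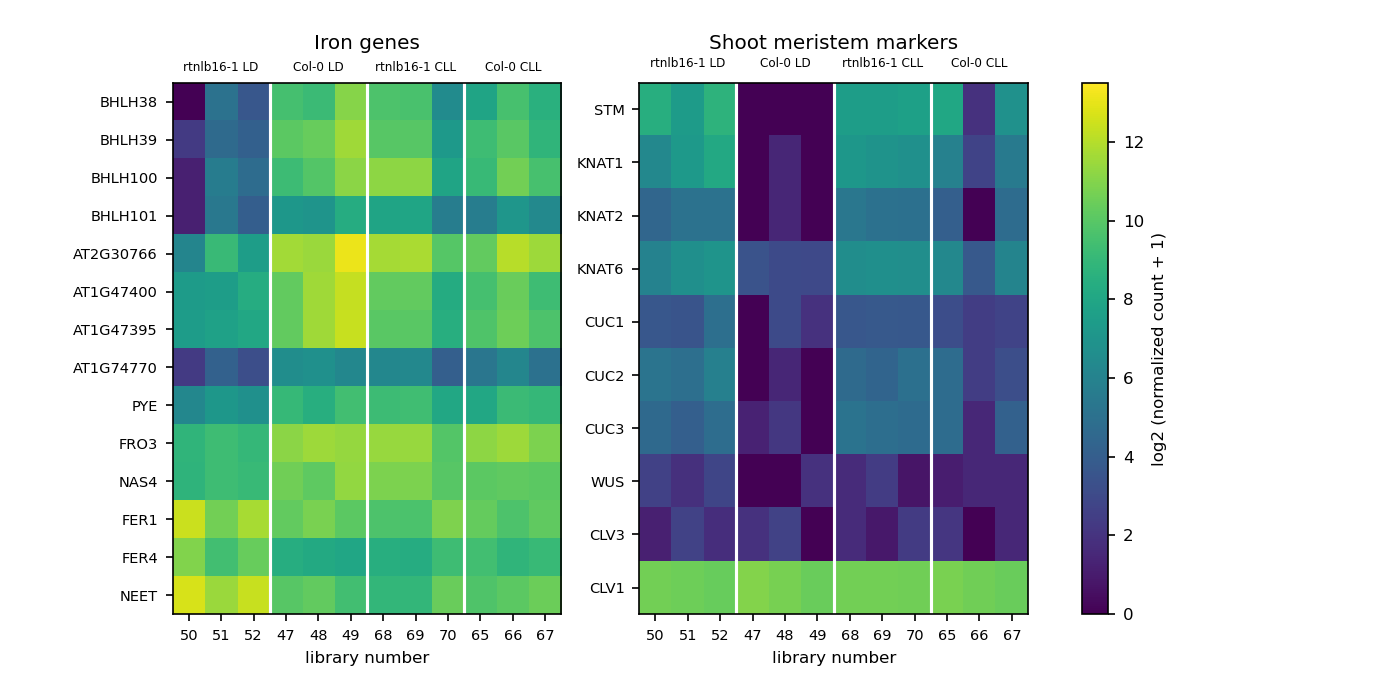
Level of 14 iron genes (left) and 10 shoot meristem markers (right) in each of the 12 libraries, in log2 of the normalized count + 1 by colour, with white lines between the 4 groups. The 4 bHLH genes at the top left are lowest in rtnlb16-1 LD and low in rtnlb16-1 CLL library 70, and STM, KNAT1 and KNAT2 are at or near 0 in Col-0 LD and low in Col-0 CLL library 66.

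The largest interaction of all changed direction between the regimes. AT1G47980, annotated as a desiccation-like protein, had 289, 86.2 and 208 in rtnlb16-1 LD, against 0, 0 and 5.49 in Col-0 LD. CLL levels of AT1G47980 were 0, 0.841 and 1.35 in rtnlb16-1 CLL, against 31.7, 21.00 and 32.3 in Col-0 CLL. The mutant was above Col-0 in LD and below it in CLL, with no overlap in either regime. Its interaction was 10.69 ± 1.02 (adjusted p = 7.99e-05), from differences of 6.55 in LD and -4.15 in CLL, and it was called whichever library was left out. A7, a lipid-transfer family protein, was found in rtnlb16-1 LD and nearly nowhere else, with 74.8, 75.6 and 127 in rtnlb16-1 LD, against 0 in each Col-0 LD library. CLL levels of A7 were 0 in each rtnlb16-1 CLL library, against 1.15, 0 and 0 in Col-0 CLL (interaction 6.87 ± 0.60, adjusted p = 4.83e-05).

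The smallest p among positive genes was that of GBF6, a bZIP transcription factor known for repression of its translation by sucrose. GBF6 had 4319.9, 3569 and 3575 in rtnlb16-1 LD, against 123, 134 and 166 in Col-0 LD. CLL levels of GBF6 were 1478, 1457 and 1628 in rtnlb16-1 CLL, against 876, 791 and 791 in Col-0 CLL. It was lowest in Col-0 LD and highest in rtnlb16-1 LD, the genotypes overlapped in neither regime, and the spread within each group was small. The GBF6 interaction was 3.87 ± 0.23 (adjusted p = 3.24e-06), the smallest adjusted p of all genes tested. AT4G08555, an uncharacterized protein, had 7112, 5176 and 8702 in rtnlb16-1 LD, against 21.5, 43.98 and 42.5 in Col-0 LD. CLL levels of AT4G08555 were 931, 835 and 1406 in rtnlb16-1 CLL, against 74.5, 97.7 and 99.8 in Col-0 CLL, so that rtnlb16-1 was higher in both regimes and more so in LD (4.09 ± 0.42, adjusted p = 0.000155, leave-out adjusted p = 0.0109 without 69, lost in 2 of 12). Among detoxification genes, 2 of 20 were called positive (10%, beside 0.395% of all genes) and 0 negative (5 and 2 by edgeR, 1 and 0 with libraries 68 and 69 as 1 sample), with a median interaction of 1.04. DTX1 had 7884, 5431 and 5884 in rtnlb16-1 LD, against 1.43, 7.04 and 2.74 in Col-0 LD. CLL levels of DTX1 were 1273, 1369.6 and 3017 in rtnlb16-1 CLL, against 40.4, 33.8 and 18.5 in Col-0 CLL. DTX1, a MATE efflux carrier, differed by 10.56 in LD and 5.84 in CLL on the log2 scale (interaction 4.72 ± 0.61, adjusted p = 0.00103, merged adjusted p = 0.0135, leave-out adjusted p = 0.0295 without 69, lost in 9 of 12). The glycosyltransferase gene UGT73B2 had 4622, 7657 and 5791 in rtnlb16-1 LD, against 134, 151 and 104 in Col-0 LD. CLL levels of UGT73B2 were 2985, 3018 and 4485 in rtnlb16-1 CLL, against 455, 639 and 447 in Col-0 CLL (interaction 2.75 ± 0.33, adjusted p = 0.000603, leave-out adjusted p = 0.0188 without 68, lost in 4 of 12).

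**Figure D3:**
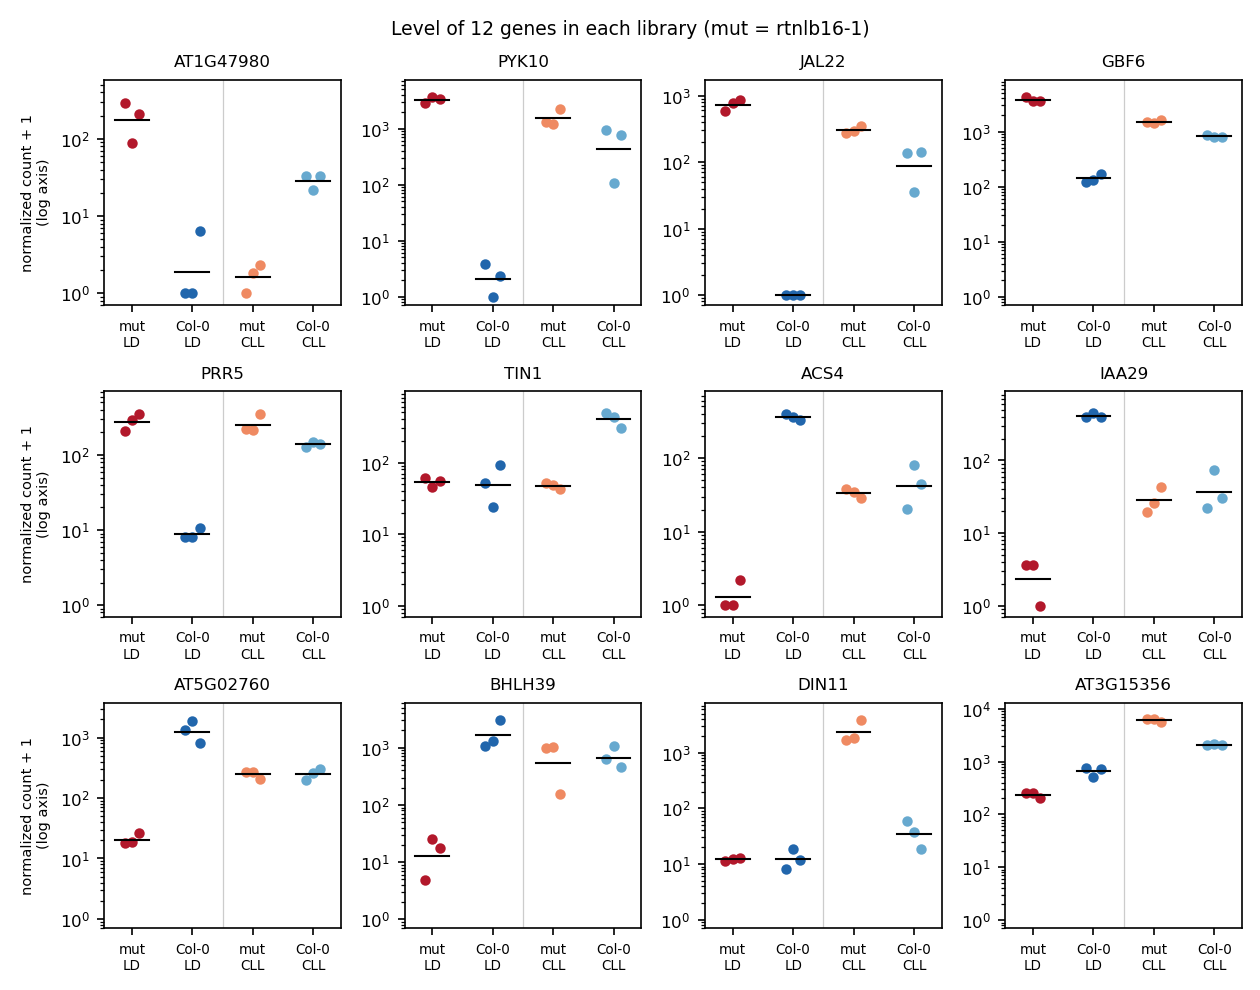
Level of 12 genes in each library, as normalized count + 1 on a log axis, with rtnlb16-1 (mut) left of Col-0 within LD and within CLL. Each point is a library and each bar the mean of 3 libraries on the log scale; PYK10, JAL22 and PRR5 are low in Col-0 LD alone, ACS4, IAA29, AT5G02760 and BHLH39 are low in rtnlb16-1 LD, DIN11 is high in rtnlb16-1 CLL, and TIN1 is high in Col-0 CLL.

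Among clock genes, positive calls fell in those of the evening. The evening genes of the plant clock include GI and FKF1, partners in the photoperiodic control of flowering, the pseudo-response regulator PRR5, and the members of the evening complex. Of 12 evening genes, 3 were called positive (25.0%, beside 0.395% of all genes) and 0 negative (5 and 0 by edgeR, 6 and 0 by DESeq2, 1 and 0 with libraries 68 and 69 as 1 sample), with a median interaction of 1.48 and 11 of 12 above 0. PRR5 had 206, 292 and 350.0 in rtnlb16-1 LD, against 7.15, 7.04 and 9.60 in Col-0 LD. CLL levels of PRR5 were 221, 212 and 346 in rtnlb16-1 CLL, against 125, 148 and 139.5 in Col-0 CLL. PRR5 was low in Col-0 LD alone, and its interaction of 4.09 ± 0.42 (adjusted p = 0.000162) was called whichever library was left out. FKF1 had 74.8, 105 and 106 in rtnlb16-1 LD, against 4.29, 5.28 and 2.74 in Col-0 LD. CLL levels of FKF1 were 138, 162 and 258 in rtnlb16-1 CLL, against 111, 262 and 126 in Col-0 CLL. FKF1 was likewise lowest in Col-0 LD, with overlap of the genotypes in CLL (4.03 ± 0.56, adjusted p = 0.00166, merged adjusted p = 0.0163, leave-out adjusted p = 0.0258 without 69, lost in 7 of 12). GI had 2648, 2645 and 2888 in rtnlb16-1 LD, against 565, 529 and 331 in Col-0 LD. CLL levels of GI were 207, 219.6 and 442 in rtnlb16-1 CLL, against 296, 223 and 221 in Col-0 CLL, so it was high in rtnlb16-1 LD and low to moderate in the other groups (2.40 ± 0.40, adjusted p = 0.00499, merged adjusted p = 0.0324, leave-out adjusted p = 0.0489 without 65, lost in 11 of 12).

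Of 14 clock genes of the morning, 1 was called negative (7.14%, beside 0.533% of all genes) and 0 positive: RVE1, a MYB-like transcription factor that promotes auxin synthesis, had 133, 269 and 133 in rtnlb16-1 LD, against 731, 621 and 639 in Col-0 LD. CLL levels of RVE1 were 1413, 1379.7 and 1035 in rtnlb16-1 CLL, against 871, 1229 and 1471 in Col-0 CLL (interaction -2.09 ± 0.38, adjusted p = 0.00908, merged adjusted p = 0.0508, leave-out adjusted p = 0.0738 without 68, lost in 11 of 12). Among 23 flowering-time genes, COL9 was the 1 call (4.35%, beside 0.395% of all genes called positive), with 121, 96.7 and 108 in rtnlb16-1 LD, against 22.9, 22.9 and 9.60 in Col-0 LD. CLL levels of COL9 were 1228, 1147 and 1170.4 in rtnlb16-1 CLL, against 844, 1187 and 892 in Col-0 CLL (interaction 2.29 ± 0.41, adjusted p = 0.00781, merged adjusted p = 0.0423, leave-out adjusted p = 0.0516 without 69, lost in 11 of 12). The hour of harvest is not given in the sources used here, and its part in the clock genes was not tested.

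The window around the start of clock genes was searched for the evening element AAATATCT, the sequence through which morning MYB-like factors act on evening genes. Windows ran from 250 bases before to 50 after the annotated gene start (RefSeq, TAIR10.1), on both strands. It was found in 6 of 12 evening genes (50.0%), in 17 of 115 positive and 10 of 153 negative protein-coding called genes (14.8% and 6.54%), and in 5.84% of the windows of 25072 protein-coding genes tested. GI, also a called evening gene, had no match. Of 19 ER body genes 2 had a match (10.5%), and the called PYK10, JAL31, JAL33, JAL34 and GLL23 had none. The windows of PRR5 and FKF1, the evening genes with the largest interactions, and of JAL22 are shown, since all 3 had positive interactions and a match. They run 5′ to 3′ on the gene's strand, with every match in capitals (AGATATTT is the same motif on the other strand). A match is a description of the sequence and was not tested as a site. They are PRR5 (chr5:8358497-8358796, minus strand), FKF1 (chr1:25508389-25508688, plus strand) and JAL22 (chr2:16416796-16417095, minus strand).
PRR5: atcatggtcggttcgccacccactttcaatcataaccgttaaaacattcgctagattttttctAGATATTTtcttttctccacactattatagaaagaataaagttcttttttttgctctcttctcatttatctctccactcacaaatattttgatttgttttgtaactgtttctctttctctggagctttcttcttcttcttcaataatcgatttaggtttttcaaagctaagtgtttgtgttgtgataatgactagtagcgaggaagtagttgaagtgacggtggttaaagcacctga
FKF1: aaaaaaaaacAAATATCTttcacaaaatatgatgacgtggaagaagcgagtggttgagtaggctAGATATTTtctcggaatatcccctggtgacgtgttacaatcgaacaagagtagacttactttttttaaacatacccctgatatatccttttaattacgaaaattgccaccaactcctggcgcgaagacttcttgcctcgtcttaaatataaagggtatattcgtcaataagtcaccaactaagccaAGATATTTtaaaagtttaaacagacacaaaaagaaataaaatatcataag
JAL22: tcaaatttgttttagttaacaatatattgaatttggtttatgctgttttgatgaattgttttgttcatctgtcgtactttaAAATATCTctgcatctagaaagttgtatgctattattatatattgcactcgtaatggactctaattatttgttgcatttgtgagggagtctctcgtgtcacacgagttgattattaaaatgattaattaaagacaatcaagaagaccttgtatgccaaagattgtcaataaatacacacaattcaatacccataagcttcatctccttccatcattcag

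In anthocyanin synthesis, UF3GT and DFR had large positive interactions with wide spread. UF3GT, a glycosyltransferase of anthocyanins, had 763, 229 and 393 in rtnlb16-1 LD, against 0, 0 and 5.49 in Col-0 LD. CLL levels of UF3GT were 87.5, 86.6 and 78.9 in rtnlb16-1 CLL, against 208, 13.7 and 102 in Col-0 CLL (interaction 7.46 ± 1.23, adjusted p = 0.00509, merged adjusted p = 0.0331, leave-out adjusted p = 0.063 without 68, lost in 10 of 12). It was the 1 called gene of 26 flavonoid genes by limma (3.85%, beside 0.395% of all genes called positive), with 0 called with libraries 68 and 69 as 1 sample. The edgeR test called 9 positive and DESeq2 8, with 0 negative by either, and 24 of 26 interactions were above 0 (median 1.11). DFR, the reductase that opens the anthocyanin branch, was chosen after its values were seen. It had 1027, 1108 and 1019 in rtnlb16-1 LD, against 2.86, 0 and 38.4 in Col-0 LD. CLL levels of DFR were 622, 599.8 and 374 in rtnlb16-1 CLL, against 855, 106 and 619 in Col-0 CLL (interaction 7.19 ± 1.396, adjusted p = 0.0127 by limma and 4.52e-15 by edgeR). Both genes were near 0 in 2 of 3 Col-0 LD libraries, and lowest among Col-0 CLL in library 66. CHS, which makes the first flavonoid of the pathway, had 52207, 29312 and 44122 in rtnlb16-1 LD, against 23037, 29695 and 25698 in Col-0 LD, and an interaction of 0.59 ± 0.36, without a call.

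Other lists had 1 positive call each. ELIP1, an early light-induced protein of the thylakoid, had 42938, 19507 and 30172 in rtnlb16-1 LD, against 1626, 2632 and 7060.1 in Col-0 LD. CLL levels of ELIP1 were 189, 209 and 195 in rtnlb16-1 CLL, against 462, 197 and 363 in Col-0 CLL (interaction 3.93 ± 0.63, adjusted p = 0.00428, merged adjusted p = 0.031, leave-out adjusted p = 0.059 without 68, lost in 11 of 12). CER1, needed for wax alkanes, had 5999, 6769 and 10851 in rtnlb16-1 LD, against 777, 929 and 761 in Col-0 LD. CLL levels of CER1 were 5138, 4950.0 and 4744 in rtnlb16-1 CLL, against 1926, 2463 and 2222 in Col-0 CLL (interaction 2.04 ± 0.30, adjusted p = 0.00222, merged adjusted p = 0.0166, leave-out adjusted p = 0.0289 without 69, lost in 9 of 12). NIA1, a nitrate reductase, had 12664, 17362 and 13870.4 in rtnlb16-1 LD, against 2759, 3395 and 2626 in Col-0 LD. CLL levels of NIA1 were 4953, 4984 and 6831 in rtnlb16-1 CLL, against 3999, 2994 and 3449 in Col-0 CLL (interaction 1.64 ± 0.29, adjusted p = 0.00692, merged adjusted p = 0.0375, leave-out adjusted p = 0.0359 without 65, lost in 11 of 12). In all 3 genes, rtnlb16-1 was above Col-0 in LD without overlap, and the CLL difference was smaller or, for ELIP1, overlapping.

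In TIN1 and GLN1;1, the genotypes were further apart in CLL. TIN1, an ER-stress gene induced by tunicamycin, had 59.4, 44.8 and 54.8 in rtnlb16-1 LD, against 51.5, 22.9 and 90.5 in Col-0 LD. CLL levels of TIN1 were 50.9, 47.95 and 41.8 in rtnlb16-1 CLL, against 491, 438 and 306 in Col-0 CLL. The CLL difference was -3.08 on the log2 scale, with rtnlb16-1 lower, and the genotypes overlapped in LD (3.23 ± 0.58, adjusted p = 0.00781, merged adjusted p = 0.0375, leave-out adjusted p = 0.0582 without 65, lost in 11 of 12). It was the 1 called gene of 27 genes of ER protein folding and its stress response (3.70%, beside 0.395% of all genes called positive), of which 25 had an interaction above 0, with list medians of 0.56 for the interaction, 0.13 for the LD difference and -0.69 for the CLL difference. GLN1;1, a cytosolic glutamine synthetase, had 1507, 1701 and 2337 in rtnlb16-1 LD, against 1186, 1618 and 1318 in Col-0 LD. CLL levels of GLN1;1 were 1473, 1590.0 and 1519.8 in rtnlb16-1 CLL, against 5215, 4639 and 3229 in Col-0 CLL (interaction 1.90 ± 0.30, adjusted p = 0.00425, merged adjusted p = 0.0257, leave-out adjusted p = 0.0328 without 68, lost in 12 of 12).

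Of the 47 lists, the auxin-responsive SAUR and Aux/IAA genes had the most negative calls. SAUR genes encode small proteins that promote cell expansion through proton pumps of the plasma membrane, and Aux/IAA genes encode repressors that auxin both induces and removes. The SAUR list was not the whole family and was chosen with earlier results of these data known. Of its 24 genes tested, 17 were called negative (70.8%, beside 0.533% of all genes) and 0 positive (19 and 0 by edgeR and by DESeq2, 4 and 0 with libraries 68 and 69 as 1 sample), with a median interaction of -3.45. The list medians were -3.54 for the LD difference and -0.13 for the CLL difference. SAUR22 had 7.74, 7.91 and 8.33 in rtnlb16-1 LD, against 249, 329 and 476 in Col-0 LD. CLL levels of SAUR22 were 14.3, 16.8 and 29.01 in rtnlb16-1 CLL, against 24.2, 38.3 and 31.4 in Col-0 CLL. SAUR22 was below 10 in rtnlb16-1 LD and at least 249 in Col-0 LD, and the genotypes overlapped in CLL at low levels (-4.58 ± 0.56, adjusted p = 0.0006). SAUR19 had 5.16, 1.76 and 11.9 in rtnlb16-1 LD, against 126, 192 and 209.8 in Col-0 LD. CLL levels of SAUR19 were 20.1, 17.7 and 10.8 in rtnlb16-1 CLL, against 6.35, 18.3 and 18.5 in Col-0 CLL. SAUR19, of the same cluster on chromosome 5, was likewise highest in Col-0 LD (-5.09 ± 0.83, adjusted p = 0.00486, merged adjusted p = 0.0312, leave-out adjusted p = 0.0403 without 68, lost in 11 of 12), as were SAUR28 (-4.09 ± 0.64, adjusted p = 0.00412, merged adjusted p = 0.0234, leave-out adjusted p = 0.0295 without 69, lost in 10 of 12) and, at counts under 20 throughout, SAUR68 (-4.87 ± 0.78, adjusted p = 0.00428, merged adjusted p = 0.0184, leave-out adjusted p = 0.0335 without 65, lost in 11 of 12). The SAUR19 to SAUR24 and SAUR61 to SAUR68 genes lie in tandem groups of near-identical copies, so reads could be split or lost among them, and they are not independent of each other. The 7 SAUR genes of the list without a call were SAUR6, SAUR9, SAUR10, SAUR14, SAUR15, SAUR16 and SAUR61.

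Among 29 Aux/IAA genes, 7 were called negative (24.1%, beside 0.533% of all genes) and 0 positive (9 and 0 by edgeR, 4 and 0 with libraries 68 and 69 as 1 sample), with a median interaction of -0.82. IAA29 had 2.58, 2.64 and 0 in rtnlb16-1 LD, against 393, 447 and 400.5 in Col-0 LD. CLL levels of IAA29 were 18.6, 25.2 and 42.5 in rtnlb16-1 CLL, against 21.4, 72.1 and 29.6 in Col-0 CLL. The genotypes were far apart in LD and overlapped in CLL (-7.07 ± 0.81, adjusted p = 0.000401, leave-out adjusted p = 0.0136 without 69, lost in 4 of 12). IAA6 had 2.58, 1.76 and 2.38 in rtnlb16-1 LD, against 223, 183 and 199 in Col-0 LD. CLL levels of IAA6 were 38.00, 36.2 and 27.7 in rtnlb16-1 CLL, against 21.4, 45.7 and 43.4 in Col-0 CLL. The IAA6 interaction was -5.92 ± 0.56 (adjusted p = 7.99e-05), called whichever library was left out. IAA5 (-3.56 ± 0.58, adjusted p = 0.00491, merged adjusted p = 0.0214, leave-out adjusted p = 0.0295 without 69, lost in 11 of 12) and IAA1 (-4.10 ± 0.76, adjusted p = 0.00988, merged adjusted p = 0.0567, leave-out adjusted p = 0.0914 without 68, lost in 12 of 12) were lower in rtnlb16-1 LD than in Col-0 LD too, and IAA3, IAA14 and IAA19 completed the 7. The other 22 lay between -2.76 (IAA34) and 0.86 (IAA20), and included abundant members such as IAA8, with 11147, 6256 and 9106 in rtnlb16-1 LD, against 9905, 8350.2 and 12610.3 in Col-0 LD, and an interaction of 0.02.

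The canonical auxin response element TGTCTC was looked for in the same windows, on both strands. It was found in 12 of 29 Aux/IAA genes (41.4%) and 7 of 24 SAUR genes (29.2%), in 28 of 153 negative and 11 of 115 positive called genes (18.3% and 9.57%), and in 14.0% of the windows of all protein-coding genes tested. The windows of IAA6 (chr1:19673603-19673902, minus strand) and SAUR22 (chr5:5975038-5975337, minus strand), 2 members called whichever library was left out, each held 1 match, in capitals (GAGACA is the same motif on the other strand). Neither match overlapped an evening element or a G-box CACGTG.
IAA6: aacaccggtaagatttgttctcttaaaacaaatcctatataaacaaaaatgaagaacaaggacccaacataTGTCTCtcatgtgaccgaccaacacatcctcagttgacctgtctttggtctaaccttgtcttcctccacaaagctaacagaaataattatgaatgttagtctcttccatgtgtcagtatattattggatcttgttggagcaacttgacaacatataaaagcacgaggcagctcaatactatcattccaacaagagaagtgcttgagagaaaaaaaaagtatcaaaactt
SAUR22: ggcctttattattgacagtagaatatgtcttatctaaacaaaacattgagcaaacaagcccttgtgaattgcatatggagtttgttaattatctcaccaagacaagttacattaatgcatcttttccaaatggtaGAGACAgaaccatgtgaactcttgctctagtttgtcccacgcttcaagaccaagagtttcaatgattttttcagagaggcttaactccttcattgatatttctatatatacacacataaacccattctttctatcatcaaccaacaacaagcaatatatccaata

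Lists close to auxin held further negative calls. In the PIF and shade list, 4 of 28 were called negative and 0 positive, all encoding transcriptional regulators of elongation growth: PRE1 (-3.20 ± 0.40, adjusted p = 0.000788, leave-out adjusted p = 0.0157 without 69, lost in 3 of 12), PRE6 (-2.29 ± 0.31, adjusted p = 0.00128, leave-out adjusted p = 0.0157 without 69, lost in 5 of 12), HAT2 (-3.19 ± 0.48, adjusted p = 0.00295, merged adjusted p = 0.0235, leave-out adjusted p = 0.0398 without 68, lost in 11 of 12) and HAT1 (-1.51 ± 0.26, adjusted p = 0.00675, merged adjusted p = 0.0327, leave-out adjusted p = 0.0295 without 69, lost in 11 of 12). These 4 made up 14.3% of the list, beside 0.533% of all genes called negative, and 2 were called with libraries 68 and 69 as 1 sample. PRE1 had 146, 93.2 and 126 in rtnlb16-1 LD, against 699, 748 and 1149 in Col-0 LD. CLL levels of PRE1 were 82.5, 105 and 127 in rtnlb16-1 CLL, against 60.6, 97.7 and 81.3 in Col-0 CLL. Of 13 alpha-expansins, proteins that loosen cell walls, EXPA8 and EXPA11 were called negative (15.4%, beside 0.533% of all genes). EXPA8 had 1258, 715 and 1244 in rtnlb16-1 LD, against 15344, 26969.9 and 17820.4 in Col-0 LD. CLL levels of EXPA8 were 1344, 1383 and 1568 in rtnlb16-1 CLL, against 1293, 1896 and 1794 in Col-0 CLL. The 3 Col-0 LD libraries stood far above the other 9 (-4.03 ± 0.36, adjusted p = 6.55e-05). EXPA11 had 246, 90.6 and 438 in rtnlb16-1 LD, against 5549, 11504 and 8469 in Col-0 LD. CLL levels of EXPA11 were 556, 591 and 467 in rtnlb16-1 CLL, against 787, 769 and 706 in Col-0 CLL (interaction -4.75 ± 0.59, adjusted p = 0.000693, leave-out adjusted p = 0.0295 without 69, lost in 8 of 12).

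Negative calls among genes of hormone synthesis, turnover and transport were few. ACS4, an enzyme that makes the ethylene precursor ACC and that auxin induces, had 0, 0 and 1.19 in rtnlb16-1 LD, against 399, 361 and 329 in Col-0 LD. CLL levels of ACS4 were 37.3, 33.7 and 27.7 in rtnlb16-1 CLL, against 19.6, 78.5 and 43.4 in Col-0 CLL. It was at or near 0 in rtnlb16-1 LD alone, and the ACS4 interaction was -7.81 ± 0.71 (adjusted p = 6.55e-05), called whichever library was left out, in a list of 19 ethylene genes with no other call (5.26%, beside 0.533% of all genes called negative). Of 20 genes of gibberellin and brassinosteroid metabolism, BAS1 and GASA6 were called negative (10%, beside 0.533% of all genes) and 0 positive (3 and 2 by edgeR). BAS1, which inactivates brassinosteroids, had 29.7, 40.4 and 40.5 in rtnlb16-1 LD, against 699, 832 and 653 in Col-0 LD. CLL levels of BAS1 were 119, 126 and 94.4 in rtnlb16-1 CLL, against 102, 119.6 and 115 in Col-0 CLL (interaction -4.28 ± 0.34, adjusted p = 3.12e-05). GASA6, a gibberellin-regulated peptide, had 834, 658 and 1158 in rtnlb16-1 LD, against 10703, 12528 and 16829 in Col-0 LD. CLL levels of GASA6 were 2677, 2506 and 2953 in rtnlb16-1 CLL, against 2149, 2811 and 3413 in Col-0 CLL (interaction -3.91 ± 0.34, adjusted p = 4.83e-05). An uncharacterized gene, AT1G74675, overlaps GASA6 on the other strand. PIN7, an auxin efflux carrier, was the 1 called gene of 26 genes of auxin synthesis, transport and perception (3.85%, beside 0.533% of all genes called negative), with 1388, 1445 and 1654 in rtnlb16-1 LD, against 4701, 5460.1 and 3902 in Col-0 LD. CLL levels of PIN7 were 1602, 1532 and 1670.3 in rtnlb16-1 CLL, against 1440.1, 1513 and 1577 in Col-0 CLL (interaction -1.72 ± 0.23, adjusted p = 0.00117, leave-out adjusted p = 0.0103 without 65, lost in 1 of 12). For BAS1, GASA6 and PIN7, Col-0 LD stood above the other 3 groups, and the genotypes overlapped in CLL. YUC9, an auxin synthesis enzyme without a limma call, is given after its values were seen, with 0, 0 and 3.57 in rtnlb16-1 LD, against 28.6, 33.4 and 31.5 in Col-0 LD. CLL levels of YUC9 were 2.87, 4.21 and 4.72 in rtnlb16-1 CLL, against 1.15, 5.48 and 4.62 in Col-0 CLL (interaction -4.46 ± 0.88, adjusted p = 0.0139 by limma and 0.00416 by edgeR).

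Genes outside the lists were among those with the smallest p. The protein phosphatase 2C gene AT5G02760 had 16.8, 17.6 and 25.00 in rtnlb16-1 LD, against 1311, 1865 and 802 in Col-0 LD. CLL levels of AT5G02760 were 268, 267 and 209 in rtnlb16-1 CLL, against 199, 261 and 300.3 in Col-0 CLL. Every rtnlb16-1 LD library was far below every Col-0 LD library, whereas the CLL groups overlapped (-5.91 ± 0.42, adjusted p = 1.42e-05). AT5G62280, a protein of unknown function, had 12.9, 16.7 and 15.5 in rtnlb16-1 LD, against 629, 876 and 554 in Col-0 LD. CLL levels of AT5G62280 were 37.3, 51.3 and 58.7 in rtnlb16-1 CLL, against 40.98, 44.7 and 65.6 in Col-0 CLL (interaction -5.37 ± 0.45, adjusted p = 4.61e-05). AT5G12050, annotated as a rho GTPase-activating protein, had 80.00, 80.9 and 86.9 in rtnlb16-1 LD, against 1430.1, 1282 and 1454 in Col-0 LD. CLL levels of AT5G12050 were 156, 155 and 199.7 in rtnlb16-1 CLL, against 116, 169.8 and 180.2 in Col-0 CLL (interaction -4.20 ± 0.31, adjusted p = 1.42e-05). These 3 were called whichever library was left out and by edgeR and DESeq2. AT5G02760 overlaps 2 genes on the other strand. AT4G36700, a cupin-family protein, had the most negative interaction of all, with 1.29, 0.879 and 0 in rtnlb16-1 LD, against 109, 296 and 576 in Col-0 LD. CLL levels of AT4G36700 were 133, 141 and 45.9 in rtnlb16-1 CLL, against 42.1, 54.8 and 41.6 in Col-0 CLL (interaction -8.40 ± 0.84, adjusted p = 0.000136, leave-out adjusted p = 0.0109 without 69, lost in 2 of 12). The uncharacterized AT2G14230, annotated as a pseudogene, had 0, 2.64 and 0 in rtnlb16-1 LD, against 68.6, 113 and 208 in Col-0 LD. CLL levels of AT2G14230 were 39.4, 42.1 and 8.10 in rtnlb16-1 CLL, against 40.98, 30.1 and 5.54 in Col-0 CLL (interaction -6.56 ± 1.15, adjusted p = 0.00711, merged adjusted p = 0.0441, leave-out adjusted p = 0.0721 without 68, lost in 12 of 12). All 3 AT4G36700 values in rtnlb16-1 LD were near 0, and the CLL genotypes overlapped for both genes.

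**Figure D4:**
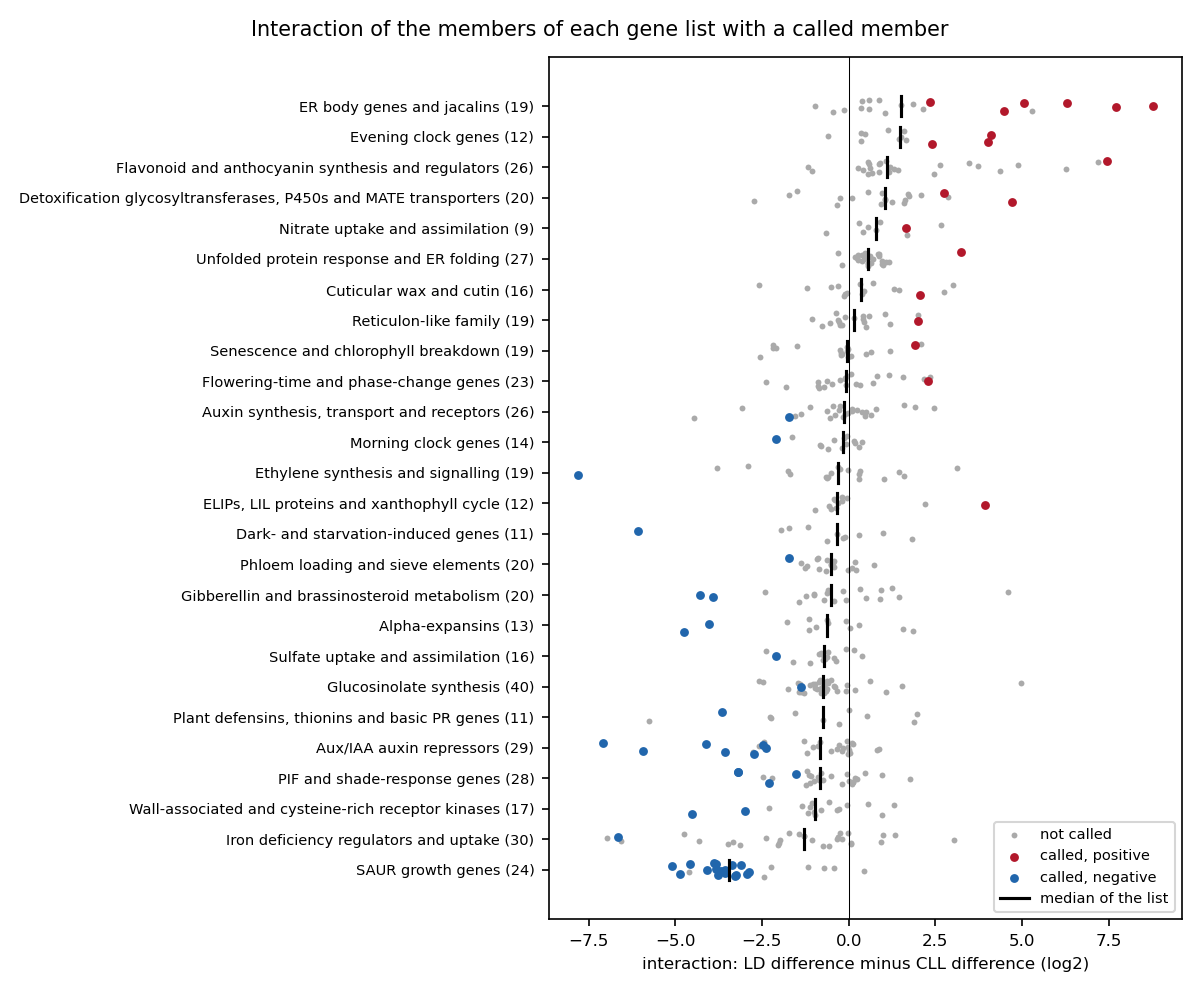
Interaction of every member tested of the 26 gene lists, cell type markers aside, that had at least 1 called member, as LD difference minus CLL difference on the log2 scale. Each point is a gene, coloured where called, the black bar is the median of the list and the number tested is in parentheses; SAUR members sit together below 0, most other lists have 1 or a few called members among many near 0.

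Iron deficiency genes lay mostly below 0, with wide spread between libraries. Plants short of iron induce a set of bHLH transcription factors (BHLH38, BHLH39, BHLH100 and BHLH101), small signalling peptides and chelator synthesis, and when iron is plentiful they make ferritin, which stores it. Of 30 iron deficiency genes, 1 was called negative (3.33%, beside 0.533% of all genes) and 0 positive by limma, with 0 called with libraries 68 and 69 as 1 sample. The edgeR test called 14 negative and 1 positive, DESeq2 12 and 1, and 24 of 30 interactions were below 0 (median -1.29). BHLH39 had 3.87, 24.6 and 16.7 in rtnlb16-1 LD, against 1085, 1319 and 3005 in Col-0 LD. CLL levels of BHLH39 were 1001, 1015 and 151 in rtnlb16-1 CLL, against 623, 1050.0 and 449 in Col-0 CLL. BHLH39 was under 25 in rtnlb16-1 LD and above 1000 in Col-0 LD, and in rtnlb16-1 CLL library 70 was far below libraries 68 and 69 (-6.66 ± 1.003, adjusted p = 0.00295, merged adjusted p = 0.0257, leave-out adjusted p = 0.051 without 68, lost in 11 of 12). The other 3 bHLH genes are given after their values were seen. BHLH38 had 0, 32.5 and 11.9 in rtnlb16-1 LD, against 734, 598 and 2082 in Col-0 LD. CLL levels of BHLH38 were 849, 800.0 and 90.4 in rtnlb16-1 CLL, against 233, 764 and 383 in Col-0 CLL (interaction -6.96 ± 1.52, adjusted p = 0.0244 by limma and 9.54e-15 by edgeR). BHLH100 (-6.55, adjusted p = 0.0251 by limma and 4.67e-15 by edgeR) and BHLH101 (-4.74, adjusted p = 0.0523 and 6.56e-08) were likewise lowest in rtnlb16-1 LD, again with library 70 lowest in rtnlb16-1 CLL. In LD the genotypes did not overlap for any of the 4. PYE, a further bHLH regulator, had 74.8, 141 and 107 in rtnlb16-1 LD, against 535, 355 and 680.2 in Col-0 LD. CLL levels of PYE were 617, 648 and 269.8 in rtnlb16-1 CLL, against 275, 597 and 511 in Col-0 CLL (-2.39 ± 0.54, adjusted p = 0.0284 by limma and 3.99e-06 by edgeR).

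IRT1 and FRO2, uptake genes of the root, had no call. IRT1, the root iron transporter, was at 0 to 52.7 over the 12 libraries, and FRO2, the root ferric reductase, had 77.4, 106 and 50.00 in rtnlb16-1 LD, against 106, 139 and 106 in Col-0 LD (interaction -0.73 ± 0.53, SE). On the storage side, none of 16 genes was called by limma, with 3 positive and 0 negative by edgeR. FER1, a ferritin, had 5559, 1608 and 3359.9 in rtnlb16-1 LD, against 1208, 1766 and 1097 in Col-0 LD. CLL levels of FER1 were 844, 830.3 and 1892 in rtnlb16-1 CLL, against 1262, 857 and 1193 in Col-0 CLL, with overlap in both regimes (1.21 ± 0.56, adjusted p = 0.312). FER4, another ferritin, had 1978, 673 and 1306 in rtnlb16-1 LD, against 339, 288 and 256 in Col-0 LD. CLL levels of FER4 were 352, 327 and 629 in rtnlb16-1 CLL, against 691, 455 and 553 in Col-0 CLL (2.46 ± 0.48, adjusted p = 0.0136 by limma, 3.35e-07 by edgeR and 2.84e-05 by DESeq2, merged adjusted p = 0.0702 by limma). NEET, an iron-sulfur protein, had 6570.1, 2785 and 5189 in rtnlb16-1 LD, against 1001, 1212 and 675 in Col-0 LD. CLL levels of NEET were 485, 494 and 1367 in rtnlb16-1 CLL, against 869, 1086 and 1429 in Col-0 CLL (2.96 ± 0.56, adjusted p = 0.0106 by limma, 1.45e-08 by edgeR and 2.75e-05 by DESeq2, merged adjusted p = 0.0601 by limma). For FER4 and NEET the genotypes were apart in LD and overlapped in CLL, where library 70 was the highest of rtnlb16-1, the reverse of its place in the bHLH genes. Library 70 was alone the lowest of the 6 CLL libraries in 63 of the 162 negative genes, and Col-0 CLL library 65 in 61, again without a count over all genes. The part of library 70 in these results was not tested beyond leaving it out, which left 94 negative calls.

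The genes with negative interactions given next, among them defence and wall-associated kinase genes, were of 2 kinds. In the first, rtnlb16-1 was lower in both regimes and more so in LD. PCR1, a small cysteine-rich membrane protein named for cadmium resistance, had 9.03, 1.76 and 2.38 in rtnlb16-1 LD, against 1932, 8551 and 10737 in Col-0 LD. CLL levels of PCR1 were 1255, 1265 and 727 in rtnlb16-1 CLL, against 27281, 35267 and 13062 in Col-0 CLL (interaction -5.81 ± 0.84, adjusted p = 0.00224, merged adjusted p = 0.0234, leave-out adjusted p = 0.0464 without 68, lost in 11 of 12). CRK4, a cysteine-rich receptor kinase, had 21.9, 22.9 and 13.1 in rtnlb16-1 LD, against 912, 1138 and 1037 in Col-0 LD. CLL levels of CRK4 were 590.1, 588 and 325 in rtnlb16-1 CLL, against 4320.3, 3451 and 2093 in Col-0 CLL (interaction -2.997 ± 0.43, adjusted p = 0.00204, merged adjusted p = 0.0197, leave-out adjusted p = 0.0295 without 69, lost in 11 of 12). Both genes lacked overlap in either regime. PDF1.2, the defensin induced by jasmonate and ethylene, had 45.2, 7.91 and 27.4 in rtnlb16-1 LD, against 192, 579 and 446 in Col-0 LD. CLL levels of PDF1.2 were 3168, 3082 and 2875 in rtnlb16-1 CLL, against 3415, 4244 and 4114 in Col-0 CLL, with the closer values in CLL (-3.66 ± 0.68, adjusted p = 0.00981, merged adjusted p = 0.0538, leave-out adjusted p = 0.0959 without 68, lost in 12 of 12). Of 35 genes of salicylic acid synthesis, signalling and PR proteins, 0 were called by limma (5 negative and 0 positive by edgeR), with list medians of -1.47 for the LD difference and -1.27 for the CLL difference.

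In the other kind, rtnlb16-1 was higher than Col-0 in CLL. DIN11, a dark-inducible oxygenase, had 10.3, 11.4 and 11.9 in rtnlb16-1 LD, against 7.15, 17.6 and 10.97 in Col-0 LD. CLL levels of DIN11 were 1722, 1841 and 3899.8 in rtnlb16-1 CLL, against 57.1, 36.5 and 17.6 in Col-0 CLL. The LD groups overlapped at low values, and rtnlb16-1 CLL stood far above the other 3 groups (-6.07 ± 0.66, adjusted p = 0.000257, leave-out adjusted p = 0.0109 without 69, lost in 1 of 12). AT3G44830, annotated as an acyltransferase, had 0 in each rtnlb16-1 LD library, against 0, 1.76 and 0 in Col-0 LD. CLL levels of AT3G44830 were 68.8, 63.1 and 103 in rtnlb16-1 CLL, against 0, 4.57 and 0 in Col-0 CLL, but its call was not shared by edgeR (adjusted p = 0.0863) or DESeq2 (0.163) (limma -5.94 ± 0.90, adjusted p = 0.00306, merged adjusted p = 0.017, leave-out adjusted p = 0.0306 without 65, lost in 11 of 12). WAK3, a wall-associated kinase, was lower in rtnlb16-1 LD (1.29, 3.52 and 2.38 in rtnlb16-1 LD, against 27.2, 40.5 and 38.4 in Col-0 LD) and higher in rtnlb16-1 CLL (919.9, 914 and 1156 in rtnlb16-1 CLL, against 514, 567 and 372 in Col-0 CLL), without overlap in either regime (-4.51 ± 0.45, adjusted p = 0.000136). The legume-type lectin gene AT3G15356 crossed over in the same way, with 253, 254 and 204 in rtnlb16-1 LD, against 762, 503 and 717 in Col-0 LD. CLL levels of AT3G15356 were 6403, 6321 and 5496 in rtnlb16-1 CLL, against 2044, 2140.2 and 2081 in Col-0 CLL (interaction -2.997 ± 0.25, adjusted p = 4.65e-05). The subtilase gene AT5G58840 crossed over too, with 45.2, 14.9 and 47.6 in rtnlb16-1 LD, against 57.2, 128 and 136 in Col-0 LD. CLL levels of AT5G58840 were 452, 457 and 851 in rtnlb16-1 CLL, against 31.2, 48.4 and 39.7 in Col-0 CLL (interaction -5.42 ± 0.65, adjusted p = 0.000566, leave-out adjusted p = 0.0174 without 65, lost in 5 of 12).

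Sulfur and sugar genes had single calls. APR1, the reductase that controls the flow of sulfate into cysteine, had 1160.0, 1327 and 1479 in rtnlb16-1 LD, against 4439, 4085 and 4036 in Col-0 LD. CLL levels of APR1 were 3788, 3781 and 4562 in rtnlb16-1 CLL, against 2411, 3399 and 3197 in Col-0 CLL (interaction -2.11 ± 0.25, adjusted p = 0.000535). The genotypes were apart in both regimes in opposite directions. CYP79B3, which turns tryptophan into the precursor of indole glucosinolates, had 361, 409 and 308 in rtnlb16-1 LD, against 1404, 1267 and 1418 in Col-0 LD. CLL levels of CYP79B3 were 1063, 1096 and 1149 in rtnlb16-1 CLL, against 1722, 1726 and 1455 in Col-0 CLL (interaction -1.36 ± 0.22, adjusted p = 0.00499, merged adjusted p = 0.0235, leave-out adjusted p = 0.0189 without 69, lost in 8 of 12). It was the 1 call among 40 glucosinolate synthesis genes (2.5%, beside 0.533% of all genes called negative), of which 35 were below 0. SWEET12, a sucrose exporter of the phloem, had 18.1, 21.1 and 20.2 in rtnlb16-1 LD, against 107, 104 and 145 in Col-0 LD. CLL levels of SWEET12 were 1089.9, 1094 and 995 in rtnlb16-1 CLL, against 1782, 2295 and 1532 in Col-0 CLL (interaction -1.71 ± 0.30, adjusted p = 0.007, merged adjusted p = 0.0365, leave-out adjusted p = 0.0302 without 65, lost in 11 of 12). CYP79B3 and SWEET12 were lower in rtnlb16-1 in both regimes.

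Photosynthesis, cell cycle and other hormone lists had no limma call. The 19 light-harvesting genes had 0 calls by limma, edgeR and DESeq2 and a median interaction of -0.18, beside median differences of -1.30 in LD and -1.15 in CLL. The 18 Calvin cycle and photorespiration genes had 0 limma calls (2 negative by edgeR), with all 18 below 0 and a median of -0.88. Jasmonate genes (28 tested, median 0.11, 2 negative by edgeR) and abscisic acid genes (43 tested, median 0.23, 3 positive and 1 negative by edgeR) had 0 limma calls. So had 36 cell cycle genes (median 0.85, 31 above 0, 3 positive by edgeR) and 28 glutathione transferases (median -0.59, 3 negative by edgeR). Limma called 0.928% of all genes, and at that share lists of this size would hold few or no calls. In all, 63 of the 282 called genes were members of a list, and 27 positive and 27 negative genes overlap another annotated gene. The share of all genes that overlap another was not counted.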

How the data were processed

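RNA from mature leaves was sequenced in 12 libraries. The authors used STAR to place reads on TAIR10, HTSeq to count them by gene and DESeq2 size factors to scale the counts, and the deposited signal values are these normalized counts. All of them came out as whole reads once the worth of 1 read was recovered (100% within a relative tolerance of 1e-06), so edgeR 4.0.16 and DESeq2 1.42.0 were run on those reads as alternatives, and edgeR called 1207 genes. The strand setting of the counting is not given in the sources used here. One growth label writes the 16 h and 8 h of the cycle as dark and light, whereas the treatment labels give 16 h of light.

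The interaction was fitted with limma 3.58.1 in R 4.3.3 on log2(normalized count + 1), with a trended prior, over 30388 genes above 0 in at least 1 library. Fold changes on this scale understate those of low genes. Calls needed a Benjamini-Hochberg adjusted p under 0.01 and a size over 1. The code was tested on simulated data. Replicates are separate samples per the labels, each pooled from at least 3 plants.

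Named genes were, per direction, the 12 largest by size and the 6 smallest by p among called genes with a group mean of at least 50, up to 4 members per list by size, RTNLB16, MSD1, FER1, FER4 and NEET. The members and the 47 gene lists (903 entries, 17 more left out because neither RefSeq nor the study gave them the list's name or role) were chosen with earlier results of these data known. Gene names came from RefSeq (TAIR10.1, 37051 of 37336 matched). Alternatives were scaling, pseudocount, filter, prior, thresholds, the count tests, libraries 68 and 69 as 1 sample and leaving out each library. Start windows were searched for AAATATCT, TGTCTC and the G-box CACGTG, which lay in 8.50% of negative, 8.70% of positive and 8.07% of all windows.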

Additional observations from a re-analysis of the deposited data

Results flagged for a closer look

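In 8 called genes the difference between rtnlb16-1 and Col-0 had opposite signs in LD and CLL, was over 1 on the log2 scale in both, and left no overlap between the genotypes in either regime. The difference between the regimes was tested by the interaction (limma, called at an adjusted p under 0.01).

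Of these, 4 are described above. AT1G47980 had an interaction of 10.69, from differences of 6.55 in LD and -4.15 in CLL. AT5G58840 (-5.421), WAK3 (-4.506) and AT3G15356 (-2.997) ran the other way, lower in rtnlb16-1 LD and higher in rtnlb16-1 CLL than in Col-0.

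The other 4 were chosen after their values were seen, and their merged and leave-out adjusted p are not given. AT3G16530, annotated as a legume lectin, had 274, 421 and 269 in rtnlb16-1 LD, against 754, 524 and 853 in Col-0 LD. CLL levels of AT3G16530 were 6705, 6522 and 5883 in rtnlb16-1 CLL, against 1864, 2672 and 2256 in Col-0 CLL, and its interaction was -2.65 (adjusted p = 0.000548). AT5G52390 had 24.5, 31.6 and 73.8 in rtnlb16-1 LD, against 5.72, 12.3 and 16.5 in Col-0 LD. CLL levels of AT5G52390 were 35.1, 41.2 and 16.2 in rtnlb16-1 CLL, against 156, 157 and 156 in Col-0 CLL, with an interaction of 4.178 (adjusted p = 0.00631). AT1G04645 (interaction 4.7) and AT1G56470 (2.976) rest on few reads, with at most 13.1 and 4.62 normalized counts in any library.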

How the results depend on the processing

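The 282 calls (120 positive and 162 negative) moved by less than 1.5 times under TMM or upper-quartile scaling, a pseudocount of 0.5 or 5, a low-value filter (10 or more in 3 or more libraries), a robust prior or no minimum size. They moved by more under the rest. The edgeR test gave 1207 (601 positive, 606 negative) and DESeq2 1070 (525 and 545). With libraries 68 and 69 as 1 sample there were 66 (21 and 45), and with their reads summed, an alternative chosen after seeing the data, edgeR gave 972 (499 and 473) and DESeq2 642 (307 and 335). An adjusted p under 0.05 gave 929 and an unadjusted p under 0.01 gave 1960. Leaving out 1 library gave 38 to 227 calls, 9 to 148 positive and 25 to 94 negative. Positive genes made up 42.6% of the calls, 49.8% by edgeR, 31.8% with libraries 68 and 69 as 1 sample, 65.2% without library 66, and 20.3% and 19.6% without libraries 68 and 69, and the cause was not tested. No sign among the 68 named genes reversed under any of these settings, and 36 of them lost their call with libraries 68 and 69 as 1 sample. Scaling moved the median of all genes by under 0.1. No paired analysis was possible because the library numbers are not shared between the groups. With 3 libraries per group, a gene without a call is not shown to lack an interaction, and low genes are limited by depth.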

Other observations

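Cytokinin response and breakdown genes had no limma call among 16 tested, with 13 interactions below 0 (median -0.68), while edgeR called 4 and DESeq2 6, all negative. GH3 genes, whose enzymes conjugate auxin, had no call by limma, edgeR or DESeq2 among 8 tested, with a median interaction of 0.87. At an unadjusted p under 0.05, 4816 of all genes tested had an interaction by limma.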
